A study of Mus musculus with 3 samples.

Results

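A set of 10 genes read as signs of urothelial, epithelial or mesenchymal identity were followed in MBT2 cells, a mouse bladder cancer line. The set was taken by name from the 57010 genes of the deposited table. Krt8 and Krt18 are the paired keratins of simple and luminal epithelium, and Krt5 and Krt14 are those of basal epithelium. Cdh1 and Cdh2 encode the epithelial and neural cadherins, Vim encodes the mesenchymal intermediate filament vimentin, and Trp63, Gata3 and Pparg encode transcription factors of the urothelium. Of these 10 genes, 5 reached at least 10 counts in a library (Krt8, Krt18, Cdh2, Vim and Gata3), and the other 5 did not exceed 7 counts in any library.

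The study asked what silencing of Asns, which encodes asparagine synthetase, does to bladder cancer cells. Each of 3 stable MBT2 lines gave 1 library of total RNA. The first carried the scramble plasmid, and the others carried the hairpins shAsns#1 and shAsns#2 in the pLKO.1 vector. What the scramble plasmid encodes is not described. For other experiments with stable lines, the study's methods name a pLKO.1-Vector plasmid beside the hairpin plasmids. Infected cells had been selected with puromycin, and nothing in the sources says whether a line grew from 1 cell or many. Libraries held 19326826 (scramble), 19167852 (shAsns#1) and 22915511 (shAsns#2) counts after rounding to whole numbers. Asns itself was at 84.4 CPM (counts scaled to a library of 1000000 counts) in scramble, 33.5 in shAsns#1 and 27.8 in shAsns#2, and its fitted log2 fold change was -1.46 (SE 0.15, edgeR adjusted p = 0.0071).

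As background, the bladder is lined by a stratified epithelium. Its basal cells express TP63, KRT5 and KRT14, whereas its intermediate and superficial luminal cells express KRT8, KRT18, uroplakins, GATA3 and PPARgamma. E-cadherin joins epithelial cells through catenins. Carcinoma cells that take on mesenchymal features commonly carry less E-cadherin and more N-cadherin and vimentin, and factors of the SNAIL, ZEB and TWIST families can bring this about, in part by binding E-box sequences in epithelial promoters.

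Promoter windows are shown for 4 genes that span the range of the data: Krt8 and Krt18, which make 1 filament together but differed in their values, Krt5, which had 0 counts in every library, and Vim, the most abundant of the 10. Each run holds the 250 bases before the RefSeq start of the gene (GRCm38.p6), 5′ to 3′ on the strand of the gene. Capitals mark an E-box (CACCTG, or CAGGTG on the other strand) and a GATA motif (AGATAA, or TTATCT on the other strand).
Krt8, chr15:102004343-102004592, minus strand: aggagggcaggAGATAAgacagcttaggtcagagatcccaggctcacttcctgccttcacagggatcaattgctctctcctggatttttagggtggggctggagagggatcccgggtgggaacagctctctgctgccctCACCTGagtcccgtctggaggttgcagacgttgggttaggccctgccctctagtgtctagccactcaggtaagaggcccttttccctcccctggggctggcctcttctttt
Krt18, chr15:102027966-102028215, plus strand: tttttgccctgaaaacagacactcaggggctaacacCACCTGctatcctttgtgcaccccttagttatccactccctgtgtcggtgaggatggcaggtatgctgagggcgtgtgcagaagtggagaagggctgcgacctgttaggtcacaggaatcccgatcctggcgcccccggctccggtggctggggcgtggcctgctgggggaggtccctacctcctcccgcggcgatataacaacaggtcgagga
Krt5, chr15:101712906-101713155, minus strand: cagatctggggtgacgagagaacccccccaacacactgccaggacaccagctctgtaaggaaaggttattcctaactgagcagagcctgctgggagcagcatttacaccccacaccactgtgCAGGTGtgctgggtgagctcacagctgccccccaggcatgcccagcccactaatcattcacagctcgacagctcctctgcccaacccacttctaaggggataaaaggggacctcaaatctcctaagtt
Vim, chr2:13574061-13574310, plus strand: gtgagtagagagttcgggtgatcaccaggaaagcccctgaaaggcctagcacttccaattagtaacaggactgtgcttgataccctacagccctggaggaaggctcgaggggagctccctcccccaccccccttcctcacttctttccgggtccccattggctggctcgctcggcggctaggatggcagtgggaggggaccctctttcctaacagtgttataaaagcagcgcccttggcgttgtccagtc

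The E-box began 111 bases before the start of Krt8, 214 bases before that of Krt18 and 128 bases before that of Krt5, and the window of Vim held neither motif. The GATA motif of Krt8 began 239 bases before its start. Windows were matched for 7 of the 10 genes, and 4 of them held an E-box (Krt8, Krt18, Krt5 and Pparg, the last in 1 of its 3 windows). The E-box is common: 17.2% of 32851 mouse promoter windows of this length held one, and 9.99% held the GATA motif. These shares are per window, whereas the 4 of 7 counts genes, so they are in unlike units. A match is a run of letters and not a measured binding site. GENCODE M21 places the starts of Krt8, Krt18 and Vim at 102004482 on chromosome 15, 102028180 on chromosome 15 and 13573927 on chromosome 2, so by that annotation the whole Vim window and the E-box of Krt8 lie inside the gene, and the last bases of the Krt18 window do as well. Krt8 and Krt18 lie beside each other and point apart, with 23698 bases between their GENCODE starts.

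Levels were compared between genes as CPM per kilobase of the gene length in the deposited table, with library sizes scaled by TMM. In scramble, Vim stood highest at 1673, followed by Cdh2 at 36.95. Krt18 followed at 1.75, Gata3 at 0.784 and Krt8 at 0.630. The order from Vim to Cdh2 to the 3 epithelial and urothelial genes held in each library, with Vim at 1178 and 889.8 and Cdh2 at 41.3 and 40.2 per kilobase in shAsns#1 and shAsns#2. Among the 14003 genes with at least 10 counts in a library, Vim ranked 38, 56 and 64 in scramble, shAsns#1 and shAsns#2, whereas Krt8 ranked 11716, 10367 and 10095. Krt18, Gata3 and Krt8 changed places: in scramble the counting intervals of Gata3 and Krt8 overlapped, and in shAsns#2 Krt8 was the first of the 3 at 2.29, against 1.66 for Krt18 and 1.65 for Gata3, although the intervals of the 3 overlapped.

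**Figure D1:**
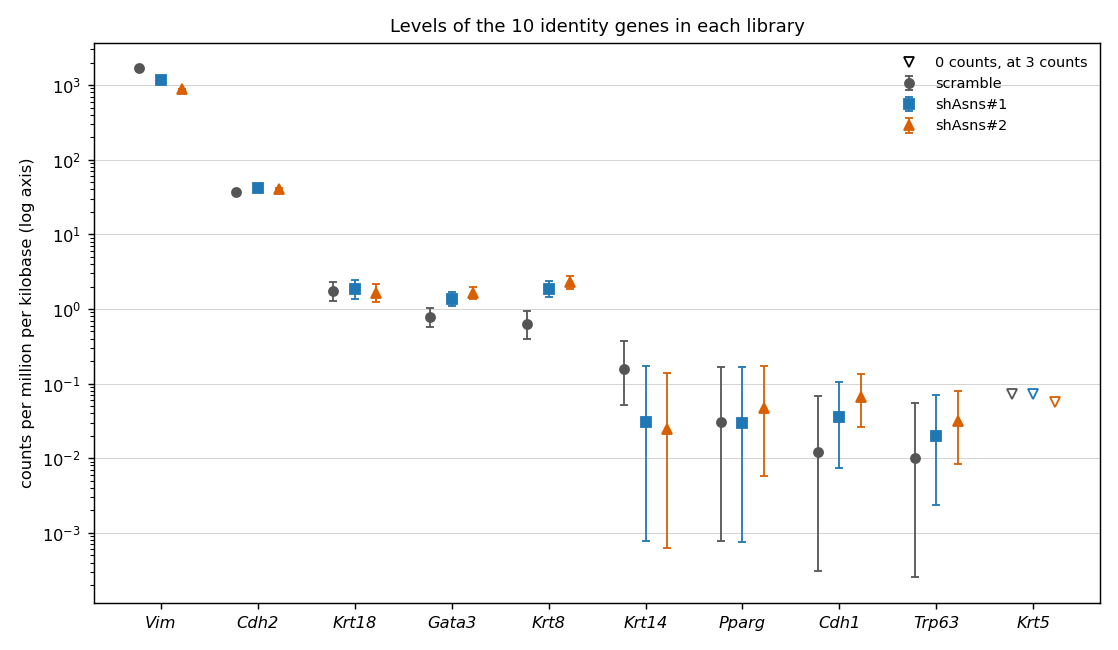
Level of each of the 10 identity genes in the 3 libraries, in CPM per kilobase on a log axis. Bars are 95% exact Poisson intervals, and open triangles mark 0 counts, drawn at the level of 3 counts. Vim and Cdh2 sit above the other 8 genes in every library, and the 5 genes at the right rest on 7 counts or fewer.

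The line is labelled as a bladder cancer cell, and it carried several mesenchymal RNAs at high levels and most epithelial and urothelial RNAs at low levels. The defining luminal markers were near 0: Upk1b, Upk3a and Krt20 had 0 counts in each library, Upk2 had 1 count in scramble and 0 in the others, and Upk1a had 8, 8 and 12. Of 21 luminal urothelial genes, 8 were kept. Of 18 basal and squamous genes 7 were kept, with Krt5, Krt6b and Krt15 at 0, and of 25 epithelial junction genes 7 were kept, with Dsp, Cldn1, Cldn4 and Cldn7 at 0. By contrast, 17 of 20 mesenchymal genes were kept, although Thy1 and Nt5e had 0 counts in each library and Cdh11 had 0, 0 and 1. Some of those kept were low, with Acta2 at 19, 36 and 59 counts and Col1a1 at 54, 28 and 47. Of 54 keratin genes, 36 had 0 counts in all 3 libraries, 15 were detected below 10 counts, and 3 were kept: Krt8, Krt18 and Krt80. Krt80, a keratin of many epithelia, was the most abundant of them, with 263, 232 and 225 counts.

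**Figure D2:**
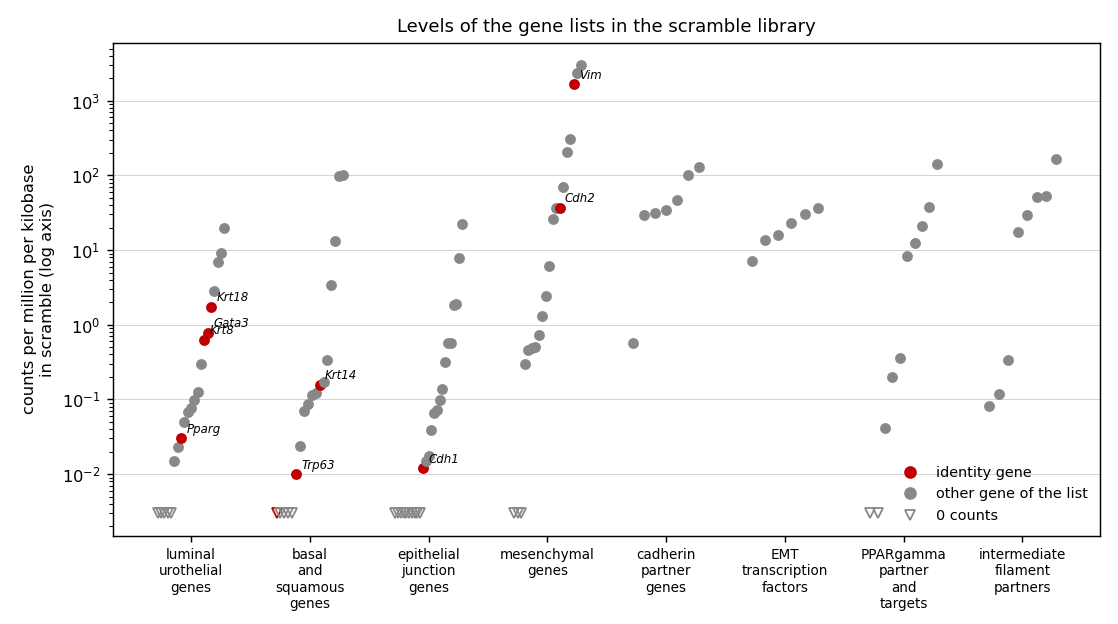
Level of each gene of 8 lists in the scramble library, in CPM per kilobase on a log axis, with identity genes in red and genes at 0 counts as open triangles at the bottom. The luminal, basal, junction, mesenchymal and PPARgamma lists reach down to 0, whereas the EMT transcription factors and cadherin partners were all detected.

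In Krt8, the type II keratin of simple epithelium, 23 counts in scramble stood against 69 in shAsns#1 and 107 in shAsns#2. These are 1.23 CPM (95% exact Poisson interval 0.781 to 1.85), 3.63 CPM (2.83 to 4.60) and 4.48 CPM (3.67 to 5.41). Both knockdown libraries were higher than scramble and their intervals did not overlap with it, while those of the hairpins overlapped with each other. All such intervals cover counting error only, and nothing in them speaks of the spread between cultures. The log2 ratio to scramble was 1.54 (95% counting interval 0.86 to 2.31) in shAsns#1 and 1.84 (1.20 to 2.58) in shAsns#2, and the hairpins differed by 0.30 (-0.15 to 0.76). Both are set against the same scramble library, so they are not independent.

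Krt18 encodes the type I keratin with which keratin 8 pairs. It had 47, 50 and 57 counts, or 2.52 CPM in scramble, 2.63 in shAsns#1 and 2.39 in shAsns#2. The intervals of the 3 libraries overlapped. Its log2 ratio was 0.06 (-0.54 to 0.67) in shAsns#1 and -0.08 (-0.66 to 0.51) in shAsns#2, and differences within these bounds were not detectable at this depth. Within a library, the per-kilobase ratio of Krt8 to Krt18 was 0.359 (0.208 to 0.603) in scramble, 1.01 (0.694 to 1.49) in shAsns#1 and 1.38 (0.990 to 1.94) in shAsns#2. This ratio does not depend on library scaling. It was 2.80 times (1.46 to 5.50) as high in shAsns#1 as in scramble and 3.81 times (2.04 to 7.29) as high in shAsns#2, by the exact conditional odds ratio.

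**Figure D3:**
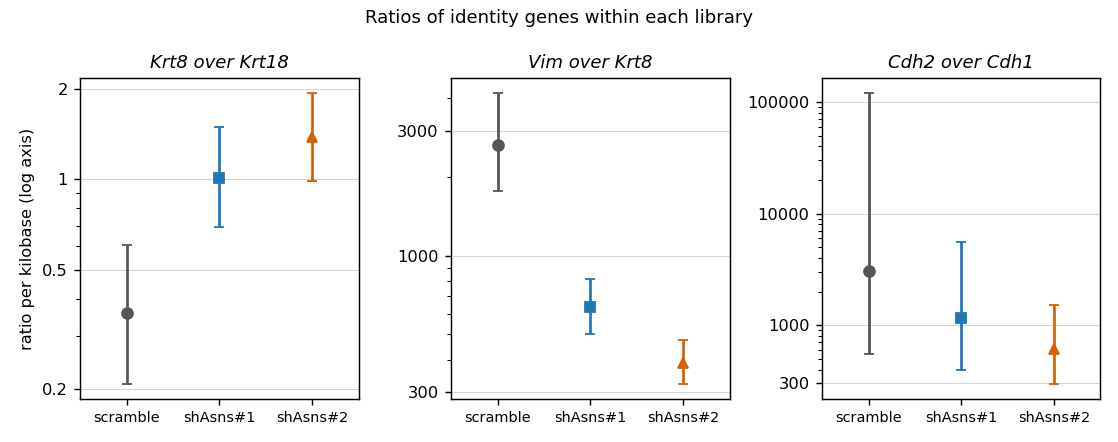
Ratio of 2 identity genes within each library, per kilobase on log axes that differ between panels, with 95% exact counting intervals. The ratio of Krt8 to Krt18 was 0.359 in scramble against 1.01 and 1.38 with the hairpins, and the intervals of Cdh2 over Cdh1 are wide because Cdh1 had 1, 3 and 7 counts.

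Gata3, which encodes a zinc finger factor of luminal urothelium and of several lymphoid cells, had 47, 83 and 127 counts. This is 2.52 CPM (1.85 to 3.35) in scramble, 4.37 CPM (3.48 to 5.41) in shAsns#1 and 5.32 CPM (4.43 to 6.33) in shAsns#2. As in Krt8, both knockdown libraries were above scramble with no overlap, and the hairpins overlapped with each other. Its log2 ratio was 0.79 (0.26 to 1.34) in shAsns#1 and 1.07 (0.58 to 1.59) in shAsns#2, with a difference between hairpins of 0.28 (-0.13 to 0.70). Of the lymphoid and myeloid markers, Tyrobp, C1qa and Cd3e had 0 counts in each library, Ptprc had 0, 1 and 1 and Csf1r 9, 1 and 6, and the 5 markers had summed CPM of 0.482 in scramble, 0.105 in shAsns#1 and 0.293 in shAsns#2.

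Vim had 68433 counts in scramble, 49096 in shAsns#1 and 46618 in shAsns#2, or 3668, 2584 and 1951 CPM. It alone made up 0.354% of the scramble library, 0.256% of shAsns#1 and 0.203% of shAsns#2. Both knockdown libraries were lower than scramble, and the hairpins also differed from each other. The log2 ratio was -0.51 (-0.52 to -0.49) in shAsns#1 and -0.91 (-0.93 to -0.89) in shAsns#2, a difference of -0.41 (-0.42 to -0.39) between hairpins. Counting error is very small at this depth and the intervals say nothing of other variation. Among housekeeping genes, the log2 ratios of Gapdh, a glycolytic enzyme, and Ppia, a peptidyl-prolyl isomerase, were -0.63 and -0.60 in shAsns#2. They were -0.25 and 0.09 in shAsns#1. Those of Actb and Ywhaz, also abundant, were -0.16 and -0.17 in shAsns#2, and 0.11 and -0.08 in shAsns#1. Of the 7 housekeeping genes, 1 lay above scramble in shAsns#2 and 4 did in shAsns#1. Set against the summed CPM of 7 housekeeping genes, a scaling added after the data were seen, Vim was at -0.50 in shAsns#1 and -0.59 in shAsns#2.

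Cdh2 had 3339, 3799 and 4657 counts, or 179 CPM in scramble, 199.9 in shAsns#1 and 195 in shAsns#2. Its log2 ratio was 0.16 (0.09 to 0.23) and 0.12 (0.06 to 0.19), and the hairpins differed by -0.04 (-0.10 to 0.03). Set against the housekeeping genes, Cdh2 was at 0.17 in shAsns#1 and 0.44 in shAsns#2. Thus vimentin lay below scramble, whereas the neural cadherin lay slightly above it with TMM scaling and was called by no test. The per-kilobase ratio of Vim to Cdh2 was 45.3 (43.7 to 46.9) in scramble, 28.5 (27.6 to 29.5) in shAsns#1 and 22.1 (21.4 to 22.8) in shAsns#2. The ratio of Vim to Krt8 was 2657 (1770 to 4191), 635 (502 to 817) and 389 (322 to 475), so vimentin RNA outnumbered keratin 8 RNA by over 2 orders of magnitude in every library.

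**Figure D4:**
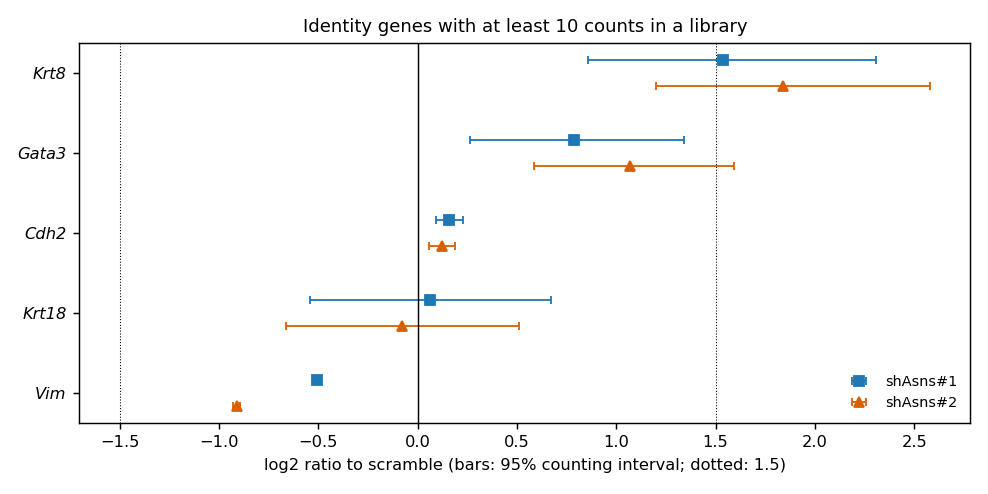
Log2 ratio to scramble of the 5 identity genes with at least 10 counts in a library, for shAsns#1 (squares) and shAsns#2 (triangles), with 95% counting intervals and dotted lines at 1.5. Krt8 lies at 1.54 and 1.84, Gata3 at 0.79 and 1.07, Cdh2 and Krt18 near 0, and Vim at -0.51 and -0.91.

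The other 5 genes were too low to compare. Krt5 had 0 counts in each library, which allows up to 0.161 CPM in scramble, 0.158 in shAsns#1 and 0.126 in shAsns#2 at a floor of 3 counts. Krt14, its partner in basal cells, had 5, 1 and 1 counts, and Trp63, the master regulator of basal epithelium, had 1, 2 and 4. Pparg, the nuclear receptor of luminal urothelium and fat, had 1, 1 and 2. Cdh1 had 1, 3 and 7 counts, a ratio to scramble of 2.95 (0.237 to 155) in shAsns#1 and 5.47 (0.702 to 246) in shAsns#2. Both of these intervals include 1, and no difference was detectable at this depth. Cdh2 exceeded Cdh1 per kilobase by 3054-fold (548 to 120700) in scramble and 609-fold (295 to 1514) in shAsns#2.

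Each hairpin was next judged against scramble by a rule of size and counting error: a log2 ratio over 1.5 either way and an adjusted exact binomial p of at most 0.05. Of the 5 kept identity genes, 1 passed with shAsns#1 and 1 with shAsns#2, in both cases Krt8 as higher. Among all 14003 genes, 1.76% were called higher and 2.98% in either direction with shAsns#1, and 2.54% and 3.78% with shAsns#2. Between the hairpins, 0 of the 5 passed the rule, beside 1.32% of all genes; this binomial comparison was the single tool run there. In shAsns#1 Krt8 lay close to the limit, and a prior count of 2 in place of 0.5 took its log2 ratio to 1.48 and off the call. The rule compares pairs of libraries and not conditions.

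The comparison of both knockdown libraries with the lone scramble library was then made by edgeR's quasi-likelihood test, which leaves 1 residual degree of freedom and assumes that scramble varies like the hairpin libraries. At an adjusted p under 0.05, edgeR called 1.14% of the 14003 genes higher and 1.51% lower, and 0 of the 5 identity genes. At an unadjusted p under 0.05 by edgeR, 3 of them passed (Krt8, Gata3 and Vim), as did 2770 of the 14003 genes. The DESeq2 test called 1 of the 5 (Vim) beside 332 of the 14003 genes. It gave some low genes, Fabp4 and Myh11 among them, no adjusted p, so it adjusted over fewer than 14003. limma-voom called 0 of the 5 beside 172 of the 14003. The fitted log2 fold change of Krt8 was 1.72 (SE 0.39, edgeR adjusted p = 0.0671) and that of Gata3 was 0.94 (SE 0.32, edgeR adjusted p = 0.166). For Vim it was -0.69 (SE 0.25), with an adjusted p of 0.185 by edgeR, 0.0297 by DESeq2 and 0.217 by limma-voom. For Cdh2 it was 0.14 (SE 0.14, edgeR adjusted p = 0.617), and for Krt18 it was -0.01 (SE 0.36, edgeR adjusted p = 0.992). In bulk RNA, fewer cells of a kind and less RNA per cell cannot be told apart.

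Of the 8 kept genes of the luminal list, which include Krt8, Krt18 and Gata3, edgeR called 0 in either direction, while the counting rule called Krt8 with each hairpin, as above. Its median log2 ratio was -0.03 in shAsns#1 and -0.01 in shAsns#2, beside medians of 0.0004 and -0.005 over all genes tested. Klf5, an epithelial Krüppel-like factor, was its highest gene per kilobase, at 66.5, 65.2 and 69.2 CPM. The receptor kinases Erbb2 and Erbb3 had fitted log2 fold changes of -0.20 and -0.29, and Foxa1, a pioneer factor of luminal cells, one of -0.30, with edgeR adjusted p from 0.348 to 0.482. Krt8 and Gata3 had the highest ratios of this list with each hairpin.

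The basal and squamous list had 7 kept genes and 0 calls by edgeR, with medians of -0.35 and -0.34. Cd44, a hyaluronan receptor of basal cells and of many mesenchymal cells, was at 570.0, 513 and 370 CPM. Itga6, the laminin receptor subunit, was at 329, 264 and 237 CPM, and its beta partner Itgb4 had 372, 200 and 429 counts. Egfr was at 134, 105 and 106 CPM. These 4 genes had negative fitted log2 fold changes, between -0.34 (Egfr) and -0.48 (Itgb4), and edgeR adjusted p between 0.193 and 0.397. The log2 ratio of Itgb4 was -0.92 in shAsns#1 and -0.15 (-0.35 to 0.05) in shAsns#2. Among the 7 kept genes, 0 lay above scramble in shAsns#1 and 2 did in shAsns#2.

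Among the epithelial junction genes, 7 were kept and 0 called, with medians of -0.19 in shAsns#1 and 0.25 in shAsns#2. Tjp1, a tight junction scaffold that fibroblasts also express, was at 158, 139 and 139 CPM, and Pkp2, a desmosomal plakophilin, at 22.7, 18.5 and 12.7. Epcam, an epithelial adhesion molecule, had 69, 61 and 105 counts, with a log2 ratio of -0.20 in shAsns#1 and 0.25 in shAsns#2. Grhl2, which activates Cdh1 in epithelia, had rounded counts of 175, 216 and 374 and a fitted log2 fold change of 0.53 (SE 0.24, edgeR adjusted p = 0.268).

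The 7 genes that join cadherins to actin, or lie beside them at the adherens junction, were all kept, and 0 were called by edgeR. Ctnna1 was at 491, 470.1 and 464 CPM and Ctnnd1, which encodes p120 catenin, at 219, 192 and 183. Ctnnb1, which encodes beta-catenin, was at 273, 209 and 190.1 CPM and had a fitted log2 fold change of -0.45 (SE 0.15, edgeR adjusted p = 0.147). Afdn, which encodes afadin, was at 269, 291 and 316 CPM. The list had medians of -0.19 and -0.25. Jup, of the same list, was low, with 34, 58 and 72 counts. It lay above scramble, with log2 ratios of 0.74 (0.11 to 1.40) in shAsns#1 and 0.71 (0.12 to 1.36) in shAsns#2 (edgeR adjusted p = 0.32). With each hairpin only 2 of the 7 genes, Afdn and Jup, lay above scramble. Ctnna1, Ctnnb1 and Ctnnd1 were thus abundant in cells with 1 to 7 counts of Cdh1 and 3339 to 4657 of Cdh2.

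Of the 17 mesenchymal genes kept, 2 rose (Fn1 and Tnc), 1 fell (S100a4) and 14 did not pass the test, with medians of -0.03 and -0.07. Fn1, which encodes the matrix protein fibronectin, rose from 11.0 CPM in scramble to 33.5 in shAsns#1 and 43.6 in shAsns#2, a log2 fold change of 1.81 (SE 0.21, edgeR adjusted p = 0.00957). Tnc, which encodes the matrix protein tenascin C, had 61, 221 and 229 counts and a log2 fold change of 1.69 (SE 0.26, edgeR adjusted p = 0.0215), a call that limma-voom did not make (adjusted p = 0.0568). The small calcium-binding protein gene S100a4 was at 1163, 516 and 387 CPM, a log2 fold change of -1.36 (SE 0.21, edgeR adjusted p = 0.0225). Fn1 and Tnc lay above scramble and S100a4 and Vim below it, so the list did not move one way. Lgals1, which encodes galectin 1, was at 2401, 2342 and 1657 CPM, and Sparc, a collagen-binding matrix protein, at 398, 391 and 379.

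All 6 EMT transcription factors were kept. Twist2 fell, from 33.9 CPM in scramble to 12.3 in shAsns#1 and 16.5 in shAsns#2, with a log2 fold change of -1.24 (SE 0.19, edgeR adjusted p = 0.0247), and 5 did not pass edgeR. Zeb2 was the highest per kilobase, at 197, 177 and 193 CPM, and Zeb1 was at 92.7, 81.1 and 86.0 CPM. Twist1 was at 49.3, 37.1 and 46.3 CPM. Snai1 and Snai2, which encode SNAIL and SLUG, lay on opposite sides of scramble. Snai1 had 698, 439 and 571 counts and a fitted log2 fold change of -0.67 (SE 0.14, edgeR adjusted p = 0.057), and Snai2 had 268, 470 and 878 counts and one of 1.10 (SE 0.25, edgeR adjusted p = 0.0672). DESeq2 called Snai2 (adjusted p = 0.0227) and limma-voom did not (0.111). Snai2 lay outside the rule for named genes and was chosen after its values were seen.

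**Figure D5:**
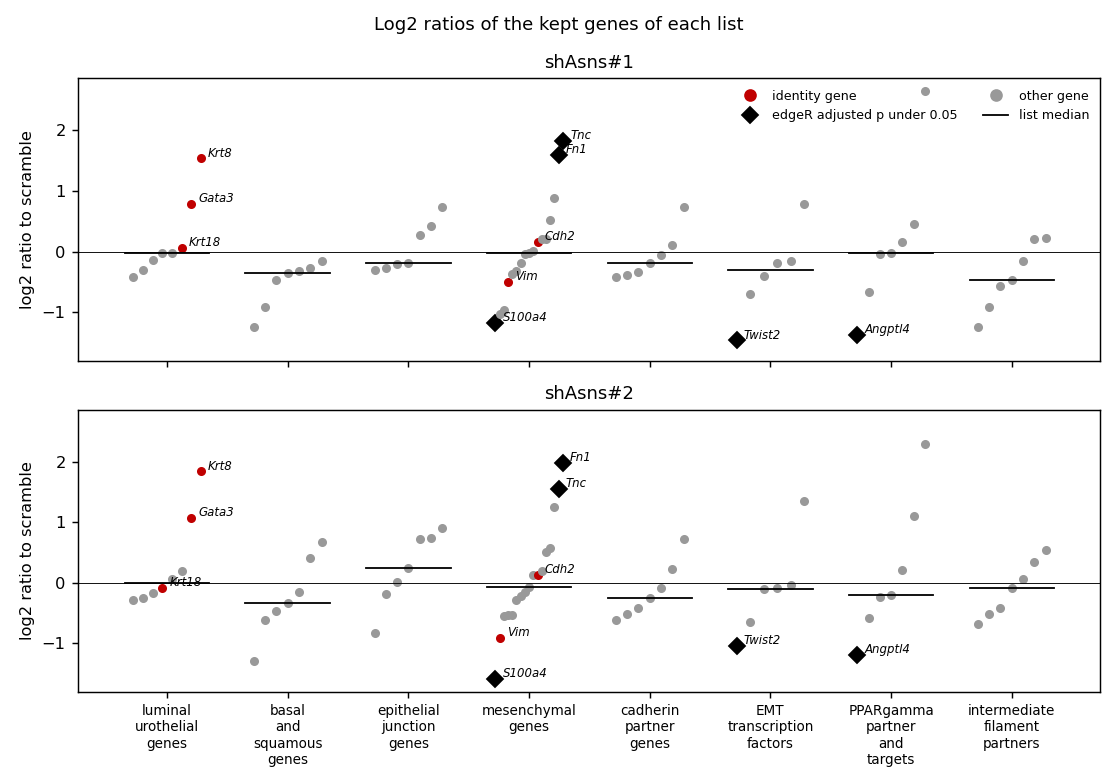
Log2 ratio to scramble of each kept gene in 8 lists, for shAsns#1 (top) and shAsns#2 (bottom), with identity genes in red, genes past edgeR as black diamonds and list medians as lines. Fn1 and Tnc lie above 0, S100a4, Twist2 and Angptl4 below 0, and Krt8 and Gata3 are the highest of the luminal list.

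Beside the 1, 1 and 2 counts of Pparg, its binding partners and known targets were mostly present, with 7 of 10 kept. Angptl4, which encodes an inhibitor of lipoprotein lipase, fell from 40.6 CPM in scramble to 15.6 and 17.8, a log2 fold change of -1.28 (SE 0.16, edgeR adjusted p = 0.0103), and 6 did not pass edgeR. Fabp4, which encodes a fatty acid-binding protein of adipocytes and macrophages, lay on the other side, with 6, 41 and 40 counts and log2 ratios of 2.65 and 2.28. It passed the counting rule with each hairpin, with a fitted log2 fold change of 2.55 (SE 0.61, edgeR adjusted p = 0.0749). Lpl, which encodes lipoprotein lipase, had rounded counts of 7, 10 and 20. The partner receptors Rxra and Rxrb were at 61.9, 61.0 and 52.6 CPM and at 55.7, 62.5 and 64.2 CPM. Plin2, a lipid droplet coat protein gene, had a fitted log2 fold change of -0.63 (SE 0.14, edgeR adjusted p = 0.0617, DESeq2 adjusted p = 0.033), and Acsl1, which encodes an acyl-CoA synthetase, one of -0.12. Of the adipocyte markers, Plin1 and Cidec had 0 counts in each library, and Adipoq had 1, 1 and 0.

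Other filament genes gave 0 calls by edgeR among 7 kept of 8. Nes, which encodes nestin, a filament protein that assembles with vimentin, was at 320.5, 232 and 199.9 CPM and had a fitted log2 fold change of -0.57 (SE 0.16, edgeR adjusted p = 0.106). Lmna, which encodes lamins A and C, was at 523, 351 and 389.8 CPM, and Lmnb1 at 147, 171 and 154. Plec, which encodes the linker plectin, was at 459, 409.9 and 434 CPM. The median of the list was -0.46 in shAsns#1 and -0.08 in shAsns#2.

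Markers of other cells were read beside these lists. Of 5 endothelial markers 1 was kept, with summed CPM of 0.697 in scramble, 0.474 in shAsns#1 and 0.963 in shAsns#2, and of 4 neuronal markers 2 were kept, with 0 calls. Of 6 fibroblast markers 5 were kept and 1 rose: Dcn, which encodes the proteoglycan decorin, with 130, 357 and 614 counts and a log2 fold change of 1.68 (SE 0.24, edgeR adjusted p = 0.0182; limma-voom adjusted p = 0.0523). Dpt, which encodes the matrix protein dermatopontin, had 395, 124 and 259 counts and log2 ratios of -1.69, past the counting rule, and -0.96 (edgeR adjusted p = 0.0556, DESeq2 adjusted p = 0.0353). Pdgfra, which defines many fibroblasts, was at 221, 218 and 230.1 CPM. Of 5 smooth muscle markers 3 were kept and Smtn, which encodes smoothelin, fell by 0.62 on the log2 scale (edgeR adjusted p = 0.0473), while Cnn1 had 1, 2 and 0 counts. Myh11, the smooth muscle myosin heavy chain gene, had 4, 19 and 27 counts and log2 ratios of 2.09 and 2.26, past the counting rule with each hairpin but not past edgeR (adjusted p = 0.15). Of 8 immediate-early genes, which respond within minutes to serum and handling, Dusp1 and Fosb fell (edgeR adjusted p = 0.00573 and 0.0479). The list had summed levels of 452.5, 293 and 321 CPM. Among its 8 genes, 1 lay above scramble in shAsns#1 and 2 did in shAsns#2. The calls of Smtn and Fosb were made neither by limma-voom (adjusted p = 0.073 and 0.0776) nor by DESeq2 (0.0745 and 0.183). Of 7 housekeeping genes, 0 were called by edgeR. The part of these markers in the values above was not tested.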

How the data were processed

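Total RNA of 3 MBT2 lines (scramble, shAsns#1, shAsns#2; 1 library each) had been sequenced by the study from Illumina TruSeq libraries. The labels name RPMI-1640 and TRIzol, whereas the study's methods name another medium and a column kit. The authors deposited estimated counts per gene, with 32.6% to 33.0% of nonzero values not whole, as arises when reads are shared between transcripts. They were rounded to whole numbers here. The submitters' processing notes name Bowtie 0.12.2 with no role; which program counted the reads, on which build and with which annotation, is stated in no source used here. The 10 identity genes had whole counts in every library (tolerance 1e-09). Fn1, S100a4, Twist2, Cd44, Itga6, Grhl2, Sparc, Afdn, Zeb2, Smtn, Lpl, Csf1r, Gapdh, Ppia, Actb and Ywhaz did not. Reads may be shared there.

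Symbols were matched for 52029 of 57010 gene IDs. A gene was kept if any library gave it at least 10 counts. Library sizes were scaled by TMM (factors 0.966, 0.992 and 1.04). Log2 ratios between libraries used a prior count of 0.5. Counting intervals are exact (Poisson, or conditional binomial, 95%). The binomial test was two-sided. P-values were adjusted by Benjamini-Hochberg over all 14003 genes, except that DESeq2 gave some low genes no adjusted p. The pair of hairpin libraries was set against scramble in edgeR 4.0.16 in R 4.3.3 (glmQLFit and glmQLFTest, common biological coefficient of variation 11.6%). DESeq2 1.42.0 and limma 3.58.1 (voom) were alternatives, with other scalings, filters and thresholds. No source says that the lines were cultured more than once. The p-values of edgeR, DESeq2 and limma-voom rest on the spread between the hairpin libraries. These carry different hairpins in separate lines, so hairpin, line and technical differences cannot be told apart in that spread. The lone scramble library adds no spread of its own. The binomial p-values measure counting error only. Promoters came from RefSeq (GRCm38.p6) and gene positions from GENCODE M21 (GRCm38).

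The 10 genes and the lists were chosen with earlier results of these data known. Named were the 10 genes, every listed gene past edgeR, the 4 genes of a list with the most counts per kilobase, keratins with at least 10 counts and Asns. Markers named at 0 or near 0, and Snai2, Fabp4, Lpl, Myh11, Acta2, Col1a1 and Jup, were added after their values were seen. The rule for genes most like a member needed a member past edgeR and named none.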

Additional observations from a re-analysis of the deposited data

How the results depend on the processing

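The number of identity genes past edgeR, 0 of 5 as reported, was 0 with DESeq2 size factors and with limma-voom. It was 2 with scaling by total counts (Krt8 and Vim, where 1257 genes were called in all), 3 without a filter on low counts (Krt8, Vim and Gata3; 1556 of 23533 genes), 1 with at least 10 counts in every library (Krt8; 503 genes), 1 by the DESeq2 test (Vim; 332 genes) and 1 at an adjusted p under 0.10 (Krt8; 892 genes). With limma-voom 172 genes were called in all and with DESeq2 size factors 209, against 371. The calls thus turned on the scaling, the filter and the tool; the cause was not tested. With a ratio over 1.5-fold in place of a log2 ratio over 1.5, 2 identity genes passed with shAsns#1 (Krt8 and Gata3; 1580 genes or 11.3% in all) and 3 with shAsns#2 (Krt8, Gata3 and Vim; 2199 genes or 15.7%). The fitted log2 fold change of Krt18, -0.01, became 0.066 with total counts, which moved the median of all genes to 0.04 in shAsns#1 and 0.11 in shAsns#2. With total counts the median log2 ratios of the luminal list were 0.01 in shAsns#1 and 0.10 in shAsns#2, and those of the mesenchymal list 0.01 and 0.04, all below 0 with TMM. Set against the 7 housekeeping genes, Krt18 in shAsns#2 went from -0.08 to 0.24, Cdh2 from 0.12 to 0.44, Gata3 from 1.07 to 1.40 and Krt8 from 1.84 to 2.18; this scaling was chosen after seeing the data. Of 105 fitted log2 fold changes under tested alternatives, 88 kept direction and side of the threshold, 8 gained a call, 8 lost it and 1 turned (Krt18). Values at an adjusted p under 0.10 reuse the main fit and cannot turn. Most of the genes counted were Asns or listed genes past edgeR, whose call could only be kept or lost. All 8 gained calls were of Krt8, Vim and Gata3. Tnc, Dcn, Smtn and Fosb lost theirs with limma-voom, and Smtn and Fosb also with DESeq2 size factors and DESeq2. Leaving out either hairpin leaves no residual degree of freedom and gave 30 values with no test. These are the ratios of the remaining hairpin to scramble. Of them, 29 kept their direction and 1 did not (Krt18, 0.06 without shAsns#2). No paired analysis was possible because each group has 1 library. Depth limits Krt5, Krt14, Cdh1, Trp63 and Pparg, at 7 counts or fewer.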
